A study of Homo sapiens with 4 samples.

Results

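The ubiquitin-specific proteases (USP) and the HERC ligases were followed in the m7G peak lists of HL60 and HL60/MX2 cells. Members were the protein-coding genes of the annotation whose symbol is USP and a number, without the USP17L copies, and HERC1 to HERC6. These were 57 of 20167 genes, 51 USP and 6 HERC. HL60 is a human acute myeloid leukemia line, labelled wild type. HL60/MX2 is its drug-resistant counterpart. For each line there was 1 library enriched with an m7G antibody and 1 input library, from polyadenylated RNA that had been decapped and fragmented before the antibody step. Decapping is meant to remove the m7G of the cap, and how far it did so was not tested. Only the enriched libraries, through 2 lists of peaks, were used here. Neither line has a replicate and each is a single culture as far as the labels say, so no difference between the lines was tested, and line and library cannot be told apart. A gene with no peak may lack the mark or may be weakly expressed, and expression was not analysed here. For the same reason the leukemia markers of the lines could not be checked.

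Ubiquitin is a small protein that is joined to other proteins by a chain of enzymes ending in a ligase, and that deubiquitinases take off again. The USP genes encode the largest family of deubiquitinases, cysteine proteases that act in protein turnover, DNA repair, endocytosis and signalling. The HERC proteins join RCC1-like domains to a HECT domain, the catalytic part of ligases that carry ubiquitin on their own cysteine before passing it on. The mark m7G is a positively charged methylated guanosine, found inside mRNA and tRNA and also at the cap of mRNA.

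The stretches of coding sequence on which the results turn are given first, in the sense of the mRNA, 5′ to 3′, from the hg19 genome. Capitals mark the motifs CUGKR and GGAAR, searched on the strand of the gene. The first was read in these spellings, CTGGA as the plainest form, then CTGGG with its last letter changed, then CTGTA with the letter before the last changed, and finally CTGTG with both of these changed. The second was read as GGAAA or, with its last letter changed, as GGAAG. The first pair are the coding stretches covered in both lists, in exon 1 of 68 of USP24 (chr1:55680463-55680540, minus strand, residues 83 to 108 of 2620) and in exon 6 of 18 of USP45 (chr6:99936557-99936583, minus strand, residues 198 to 206 of 814). The next are the highest-scoring coding peak of HL60, in exon 6 of 23 of HERC6 (chr4:89317167-89317279, plus strand), and the highest of HL60/MX2 whose coding part is short enough to print, in exon 15 of 24 of USP54 (chr10:75289438-75289669, minus strand). The last 3, chosen after their values were seen, show how the lists differ within 1 HERC gene or hold the single HL60/MX2 peak of another. They are exon 2 of 23 of HERC5 in HL60 (chr4:89380498-89380537, plus strand), exon 4 of HERC5 in HL60/MX2 (chr4:89383286-89383327, plus strand) and exon 70 of 78 of HERC1 in HL60/MX2 (chr15:63920876-63921014, minus strand).
USP24 (both lines): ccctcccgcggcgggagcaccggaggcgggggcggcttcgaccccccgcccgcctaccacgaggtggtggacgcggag
USP45 (both lines): acttgcttttttaatgcagtcatgcag
HERC6 (HL60): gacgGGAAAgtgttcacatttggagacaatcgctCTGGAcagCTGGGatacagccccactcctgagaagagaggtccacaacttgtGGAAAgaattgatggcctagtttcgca
USP54 (HL60/MX2): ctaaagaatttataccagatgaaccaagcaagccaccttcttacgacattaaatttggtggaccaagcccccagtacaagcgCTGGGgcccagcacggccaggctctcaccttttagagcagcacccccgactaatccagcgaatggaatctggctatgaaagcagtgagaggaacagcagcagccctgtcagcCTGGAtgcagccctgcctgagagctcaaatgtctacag
HERC5 (HL60): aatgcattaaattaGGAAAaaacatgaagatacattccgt
HERC5 (HL60/MX2): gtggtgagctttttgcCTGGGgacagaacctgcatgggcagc
HERC1 (HL60/MX2): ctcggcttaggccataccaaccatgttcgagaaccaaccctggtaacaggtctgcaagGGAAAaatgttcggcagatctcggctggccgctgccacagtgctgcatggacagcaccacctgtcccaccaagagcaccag
Neither of the stretches covered in both lists holds a motif. The USP24 stretch is 80.8% G and C, and the USP45 stretch 37.0%. The HERC6 peak holds each motif 2 times.

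In HL60, 22 of the 57 genes had a peak (38.6%, exact 95% interval 26.0 to 52.4), against 26.4% of all protein-coding genes. In HL60/MX2, 23 had one (40.4%, 27.6 to 54.2), against 28.6%. Both lists together marked 10 of the genes (17.5%), against 12.0% of all genes. The peaks numbered 37 of the 8070 in the HL60 list (0.458%) and 35 of the 8122 in the HL60/MX2 list (0.431%), close to the family's 0.446% of all protein-coding exon sequence. Intervals are Clopper-Pearson intervals of the counts and cover counting error only. The depth behind the peaks is unknown, since no read counts come with the lists.

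USP and HERC genes have many exons, with a median of 20 on the longest coding transcript against 8 over all genes, and the share of genes with a peak rises with the number of exons. Among the other genes of 1 to 5 exons, 16.4% carried a peak in the HL60 list and 17.2% in the HL60/MX2 list, and among those of over 50 exons 72.7% and 75%. The count was therefore set beside that of genes of like exon number, by giving each member the share of other genes with a peak in its own class of exon number and summing over the 57. This gave 22.4 genes in HL60 and 24.0 in HL60/MX2. The observed counts were 0.980 times (0.660 to 1.33) and 0.956 times (0.653 to 1.28) these numbers. Taking for each member the 30 genes nearest in exon number, ties included, gave ratios of 0.962 and 0.939 for genes, and the peaks were 0.879 and 0.850 times the 42.1 and 41.2 so given. Genes of like exon number thus had nearly the same count as the family in both lines, and the interval of each ratio of genes includes 1.

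**Figure D1:**
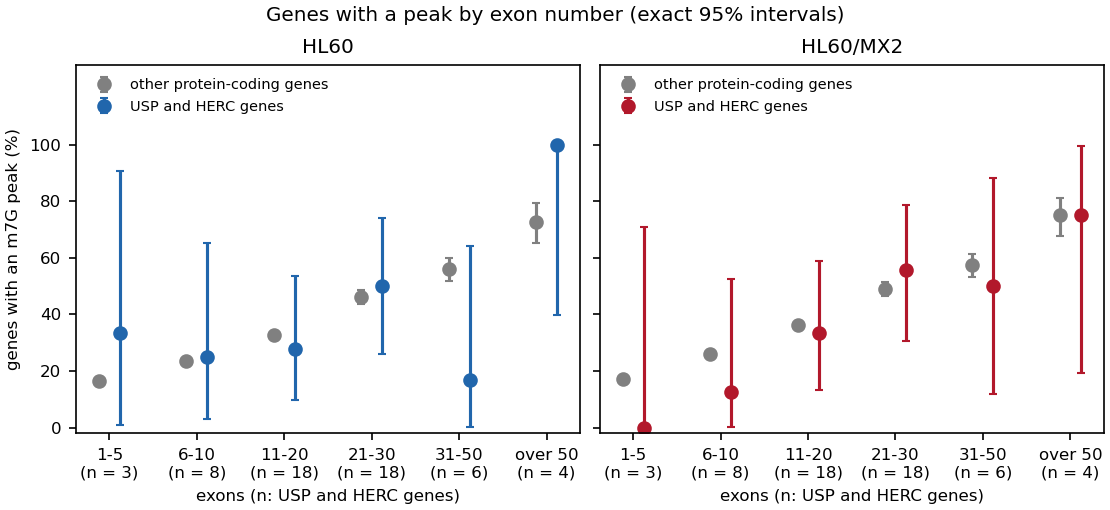
Genes with an m7G peak (% of genes, y axis) by the number of exons of the longest coding transcript (x axis), for USP and HERC genes (coloured) and the other protein-coding genes (grey), in HL60 (left) and HL60/MX2 (right). Bars are exact 95% intervals of the counts. The share rises with exon number in the grey points, from 16.4% to 72.7% in HL60, and those points lie inside the intervals of the family in every class of both lines.

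The genes fell into 4 states. Peaks in both lists were found in HERC1, HERC5, USP15, USP24, USP25, USP28, USP31, USP34, USP45 and USP54. In HL60 alone, 12 genes had a peak, namely HERC2, HERC4, HERC6, USP11, USP18, USP27X, USP30, USP32, USP37, USP38, USP42 and USP46 (21.1%, against 14.5% of all genes). In HL60/MX2 alone, 13 had one, namely USP3, USP4, USP6, USP7, USP8, USP20, USP33, USP35, USP40, USP47, USP48, USP50 and USP53 (22.8%, against 16.6%). No peak was listed in either line for the other 22, namely HERC3, USP1, USP2, USP5, USP9X, USP9Y, USP10, USP12, USP13, USP14, USP16, USP19, USP21, USP22, USP26, USP29, USP36, USP39, USP43, USP44, USP49 and USP51. All the genes marked in HL60/MX2 alone were USP genes, as are 51 of the 57 members. Of the HERC genes, 0 of 6 were so marked, with an interval of 0 to 45.9% that includes the 16.6% of all genes.

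**Figure D2:**
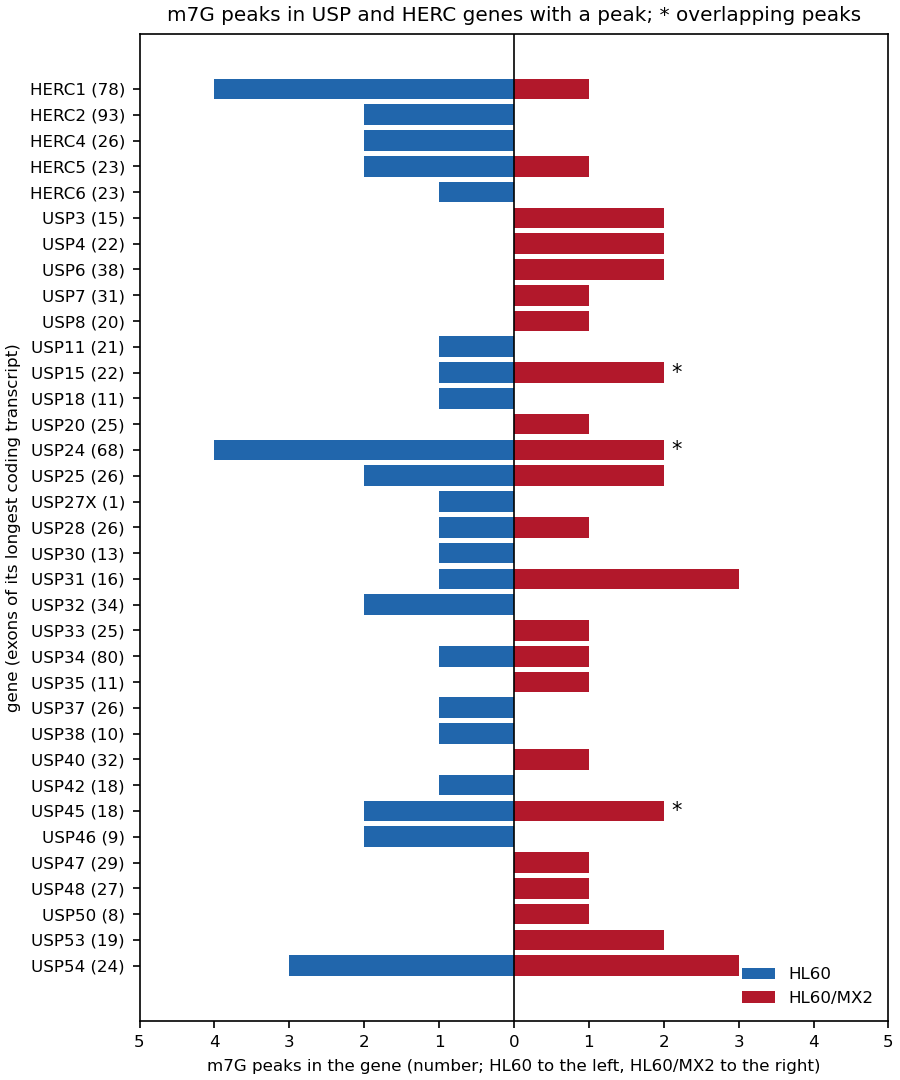
Number of m7G peaks in each of the 35 USP and HERC genes with a peak, HL60 to the left and HL60/MX2 to the right (x axis), with the exons of the longest coding transcript in parentheses beside each name (y axis). Stars mark the 3 genes in which peaks of the lists overlap. HERC1 and USP24 have 4 peaks in HL60, and USP31 and USP54 have 3 in HL60/MX2.

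The HERC genes had more peaks in the HL60 list than in the HL60/MX2 list. In HL60, 5 of 6 were marked, with 11 peaks, and in HL60/MX2 2 of 6, with 2 peaks. They held 29.7% of the family's peaks in HL60 (15.9 to 47.0) and 5.71% in HL60/MX2 (0.700 to 19.2). The 30 genes nearest in exon number to each gave 8.70 peaks in HL60 and 7.93 in HL60/MX2, so the HERC count was 1.26 times this number in HL60 and 0.252 times in HL60/MX2. For genes with a peak, the ratios were 1.45 (0.624 to 1.73) and 0.538 (0.0699 to 1.25), and both intervals include 1. The USP genes had 26 peaks in 17 genes in HL60 and 33 peaks in 21 genes in HL60/MX2, which were 0.779 and 0.993 times the peaks of such genes. With 6 HERC genes and 1 library a line, these counts describe the lists only.

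HERC1, a giant ligase of 4861 residues and 78 exons, had 4 peaks in HL60 and 1 in HL60/MX2. The HL60 peaks lay in exons 18, 24, 40 and 73, with scores of 83.55, 144.66, 222.31 and 80.06. The HL60/MX2 peak covered the whole of exon 70 (139 bp) with a score of 576.96, at percentile 81.6 of its list. The nearest peaks of the lists were 4787 bp apart on the genome. Of 30 genes with 71 to 85 exons, 8 had at least 4 peaks in HL60 and 24 at least 1 in HL60/MX2. Scores were compared only within a list throughout, as their scale is not stated.

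HERC2, which takes part in the response to DNA breaks, had 2 peaks in HL60 alone. Of these, 1 lay in the first exon just before the start codon (78 bp, score 185.92), and the other the whole of exon 6 of 93 (101 bp, score 67.38). HERC2 has partial copies elsewhere in the genome, and all 47 of the 32-base words of the first-exon peak occur elsewhere too, so reads within it may not be particular to HERC2. None of the 70 words of the exon 6 peak does. In HL60/MX2, 28 of the 33 genes nearest to HERC2 in exon number had a peak and HERC2 had none.

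The small HERC genes were marked mostly in HL60. HERC5, the main ligase that joins the interferon-induced ubiquitin-like protein ISG15 to its targets in human cells, had peaks in exon 2 (40 bp, score 302.35) and exon 12 (147 bp, score 169.34) in HL60, and in exon 4 (42 bp, score 607.20) in HL60/MX2. The exon 2 and exon 4 peaks, printed above, were 2749 bp apart and did not overlap. HERC6, its close relative, had the second-highest score of the family in HL60 (469.89, percentile 87.2 of the list) and no peak in HL60/MX2. HERC4 had peaks in exon 11 (125 bp, score 101.10) and exon 4 (74 bp, score 74.42), in HL60 alone. HERC3, which lies beside HERC5 and HERC6 on chromosome 4, had none. Of the HERC peaks, 12 of 13 were in coding sequence and none overlapped between the lists.

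Peaks of the lists overlapped by at least 1 bp in 3 of the 57 genes (5.26%), against 2.28% of all genes, and in each the shorter peak lay wholly inside the longer one. By peak, 8.11% of the family's HL60 peaks and 8.57% of its HL60/MX2 peaks overlapped, against 6.13% and 6.09% of all peaks. The values over all genes and all peaks lie inside the family's exact 95% intervals. Genes of like exon number were not set beside these counts. USP24, a large deubiquitinase that acts on repair and p53 pathway proteins, had 4 peaks in HL60, in exons 1, 6, 36 and 42, and 2 in HL60/MX2, in exons 1 and 3. The HL60 peaks of exons 6, 36 and 42 had scores of 116.34, 135.56 and 84.56, and the HL60/MX2 peak of exon 3 had 319.80. The exon 1 peak covered 78 bp in HL60 with a score of 115.43. In HL60/MX2 it covered 577 bp, from position -251 to position 324 counted from the start codon, with a score of 3100.00, the highest of that list and held by 53 peaks. Its HL60 counterpart was at percentile 27.1 of its own list.

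USP45, which acts on the DNA repair nuclease ERCC1, had 2 peaks in each list. The overlapping ones were in exon 6, over the whole exon in HL60 (140 bp, score 154.50) and over its 3′ end in HL60/MX2 (27 bp, score 253.13). The other HL60 peak had the highest score of the family in that list (483.68, 383 bp) and the other HL60/MX2 peak a score of 407.27 (114 bp), both in exons absent from the longest coding transcript. USP15, a deubiquitinase of TGF-beta receptor signalling, had its overlapping peaks in such an exon as well, of 624 bp in HL60 (score 61.33) and 292 bp in HL60/MX2 (score 509.69). A second USP15 peak lay in exon 8 in HL60/MX2 (score 304.04).

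The other 5 USP genes marked in both lists had their peaks in different places. USP54, long listed among the members without catalytic activity, had 3 peaks in each line, and no other member had as many in both. In HL60 they lay in exons 1, 12 and 13, with scores of 102.68, 464.00 and 176.07. In HL60/MX2 they lay in exons 7, 10 and 15, with scores of 134.77, 124.98 and 854.69. The nearest pair was 793 bp apart. Of the 171 genes with 24 exons, 12 had at least 3 peaks in HL60 and 14 in HL60/MX2.

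USP31 had 1 peak in HL60, in exon 15 (score 129.46), and 3 in HL60/MX2, in exon 8 (score 211.45) and at 2 places of its long 3′UTR (scores 131.74 and 193.61). Of the 406 other genes with 16 exons, 11 had 3 peaks in HL60/MX2 and none had more. USP25, which acts in disposal of misfolded proteins and in antiviral signalling, had peaks in exon 24 (score 354.64) and the 3′UTR (score 70.26) in HL60, and in the 5′UTR (score 126.90) and exon 7 (score 66.43) in HL60/MX2. Its close relative USP28, which stabilises MYC, had a peak in exon 15 in HL60 (201 bp, score 165.73) and 1 of only 2 bp in exon 13 in HL60/MX2 (score 187.76). USP34, an 80-exon gene of Wnt signalling, had a peak in exon 31 in HL60 (score 295.77) and in exon 25 in HL60/MX2 (score 321.99), 19407 bp apart.

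**Figure D3:**
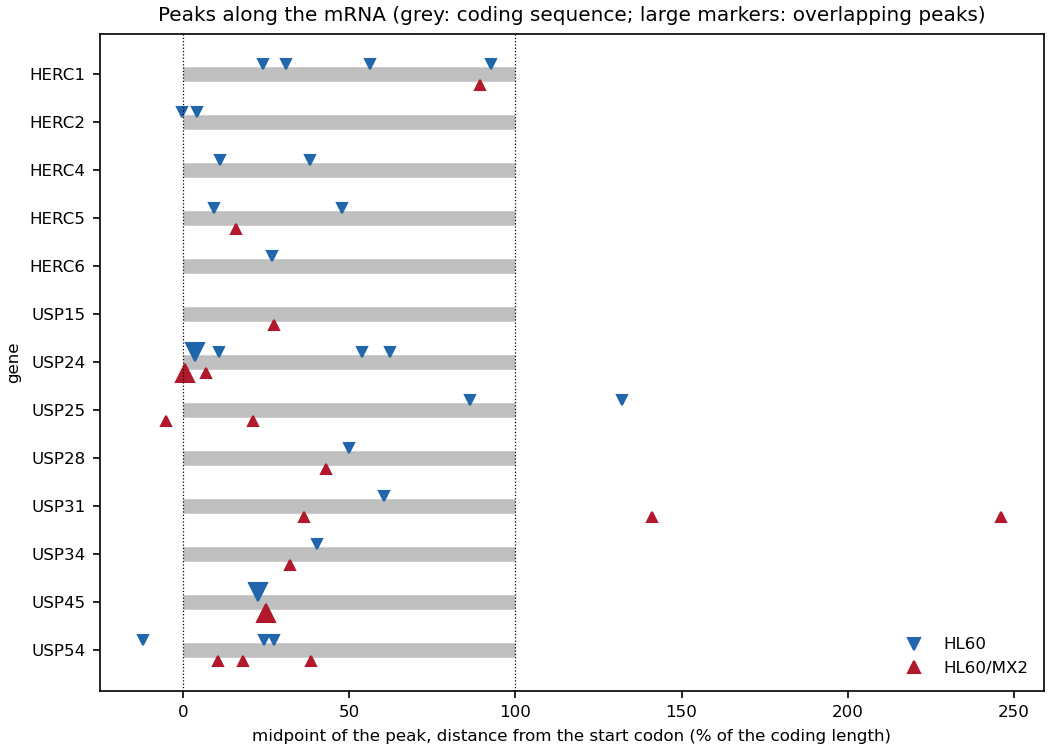
Peaks along the mRNA of the USP and HERC genes marked in both lists and of the other marked HERC genes. The x axis gives the midpoint of the peak as distance from the start codon in % of the coding length (grey bar, 0 to 100), and the y axis the gene. Triangles pointing down are HL60 peaks and triangles pointing up HL60/MX2 peaks. Large triangles are overlapping peaks, in USP24 and USP45. Peaks off the longest coding transcript, such as the overlapping ones of USP15, are not drawn.

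By role, the groups were small and their counts are given as such. Of 8 genes whose products take ubiquitin off histones H2A or H2B, 1 was marked in HL60 (USP27X) and 1 in HL60/MX2 (USP3), where 26.4% and 28.6% of all genes were, and USP16, USP21, USP22, USP44, USP49 and USP51 in neither. The endosomal and receptor-sorting proteases USP8, USP20 and USP33 were marked in HL60/MX2 alone, and USP2 in neither. Over all genes, 16.6% were marked in HL60/MX2 alone. Of other genes with as many exons as USP8, 41.8% were marked in HL60/MX2, and of those with as many as USP20 and USP33, 58.1%. The HL60 shares of the same genes were 41.0% and 44.9%. USP20 had the second-highest score of the family in HL60/MX2 (924.31), in a peak of 5 bp just before the start codon. USP8 had a peak of 542 bp within exon 11 with a score of 213.58.

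Of 7 genes of DNA damage, replication and p53 control, 2 were marked in HL60 (USP28 and USP37) and 4 in HL60/MX2 (USP7, USP28, USP47 and USP48), where 26.4% and 28.6% of all genes were. Neither count was tested. USP7, which deubiquitinates p53 and MDM2, had a peak of 217 bp (score 243.95), and USP37, which stabilises cyclin A, had 1 of 132 bp (score 211.14). USP1, which acts on FANCD2 and PCNA, and USP10 had none. Of the genes whose products bind the activator WDR48, USP46 had 2 peaks in its 3′UTR in HL60, and USP1 and USP12 had none. None of the 3 genes that act on the proteasome or on free ubiquitin chains, USP14, USP5 and USP13, had a peak. These last groups hold 3 genes each, and over all genes 43.0% had a peak in at least 1 list.

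The paralogues USP4, USP11 and USP15 were marked in different lists. USP11 had a peak in HL60, in exon 5 (79 bp, score 75.01). USP4 had 2 in HL60/MX2, in exon 17 (score 118.14) and in the 3′UTR (240 bp, score 212.07), of which the second also overlaps exons of C3orf62 by 89 bp. USP15 had peaks in both, as above. USP30, which opposes Parkin at the mitochondrion, was marked in HL60 (17 bp, score 229.58), and USP35, also tied to mitophagy, in HL60/MX2 (481 bp, score 275.55). USP18, which takes ISG15 off proteins, had a peak of 232 bp over its first exon in HL60 (score 307.56). Only 105 bp of it lie on USP18 exons, and it begins upstream of the annotated gene. HERC5 and HERC6 had HL60 peaks elsewhere in their mRNAs.

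USP6 and USP32 are related, as USP6 arose in primates from parts of USP32 and another gene. USP32 had 2 peaks in HL60 and none in HL60/MX2, and USP6 had 2 in HL60/MX2 and none in HL60. Their scores were 85.23 (exon 18) and 165.64 (exon 12) in USP32, and 231.00 (exon 30) and 494.42 (exon 37) in USP6. The USP32 peak in exon 18 had all of its 51 words of 32 bases elsewhere in the genome, and the USP6 peak in exon 30 had 121 of 181. The second peaks, of 5 bp in USP32 and 21 bp in USP6, are too short for such a word. In all, 8 of the 72 peaks of the family had a word found elsewhere, and 11 were shorter than 32 bp.

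USP53, listed with USP54 and the splicing factor USP39 as lacking catalytic activity, had 2 peaks in HL60/MX2, of 6 bp in the 5′UTR (score 476.26) and 55 bp in exon 10 (score 187.76). USP39 had none. The histone protease USP3 had 2 peaks in HL60/MX2, with scores of 200.22 and 242.01, each over a whole exon. It lies next to HERC1 on chromosome 15, on the other strand, and HERC1 had most of its peaks in HL60. The SAGA-linked protease USP27X had its HL60 peak in the 3′UTR of its single exon (132 bp, score 278.57).

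In HL60, USP38 had a 3′UTR peak (score 179.47) and USP42 a peak of 11 bp in exon 15 (score 114.75). In HL60/MX2, USP40 and USP47 had 3′UTR peaks, with scores of 235.27 and 147.57. In the same list, USP33 had a peak of 82 bp (score 92.46), USP48 of 8 bp (score 85.95) and USP50 of 44 bp (score 290.38), all in coding sequence. These genes had no peak in the other list.

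Most peaks of the family were in coding sequence. In HL60, 27 of the 35 placed peaks were there (77.1%, 59.9 to 89.6), against 63.9% over all genes, and in HL60/MX2 23 of 31 (74.2%, 55.4 to 88.1), against 59.8%. The interval of the family holds the value over all genes in each line. In each line, 5 peaks were in the 3′UTR, 2 in the 5′UTR, 1 near the start codon and 0 near the stop codon, where up to 10.0% and 11.2% would be within the intervals. Near the start codon or in the 5′UTR, the share was 8.57% in HL60 and 9.68% in HL60/MX2, against 10.4% and 17.6% over all genes, with both of the latter inside the family's intervals. Near a codon means within 100 nt on either side, and 2 and 4 peaks outside the longest coding transcript were not placed.

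**Figure D4:**
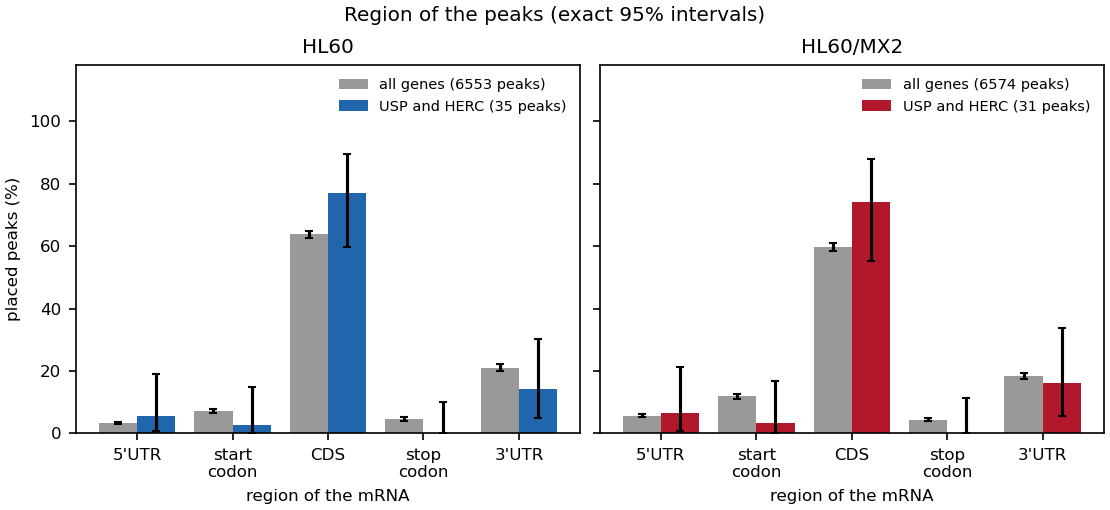
Share of placed peaks (%, y axis) in each region of the mRNA (x axis), for USP and HERC genes (coloured) and all genes (grey), in HL60 (left) and HL60/MX2 (right). Bars start at 0 and carry exact 95% intervals. Coding sequence holds 77.1% and 74.2% of the family's peaks, and no peak lies near a stop codon.

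The coding sequence was split into 3 parts of equal length. In HL60, 13 of 27 coding peaks had their midpoint in the first part (48.1%, 28.7 to 68.1) and 4 in the last, and in HL60/MX2 13 of 23 (56.5%, 34.5 to 76.8) and 5. Over all genes the first part held 32.5% in HL60 and 34.0% in HL60/MX2. The HL60 interval includes the value over all genes, and the lower end of the HL60/MX2 interval, 34.5%, is just above it. Among the 13 HL60/MX2 peaks of the first part is that of USP24 exon 1, which spans the start codon. Of its 575 bases on the transcript, 324 are coding, and the count was not repeated without it. The parts of the coding sequence were looked at after the other values were seen.

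Counted by peak, the scores of the family were mostly below the middle of their lists. The median was 154.5 in HL60, against 196.8 for the list, with 11 of 37 peaks above the list's median. In HL60/MX2 it was 235.3 against 259.7, with 14 of 35 above. With 1 peak per gene, the highest, the family's medians were 198.5 in HL60 and 275.6 in HL60/MX2. The lists were not reduced in that way, so these medians have no like value beside them. The HL60 scores ran from 61.33 to 483.68 and the HL60/MX2 scores from 66.43 to 3100.00. Both HERC peaks of HL60/MX2 were above the upper quartile of their list, and 1 of the 11 of HL60 was.

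**Figure D5:**
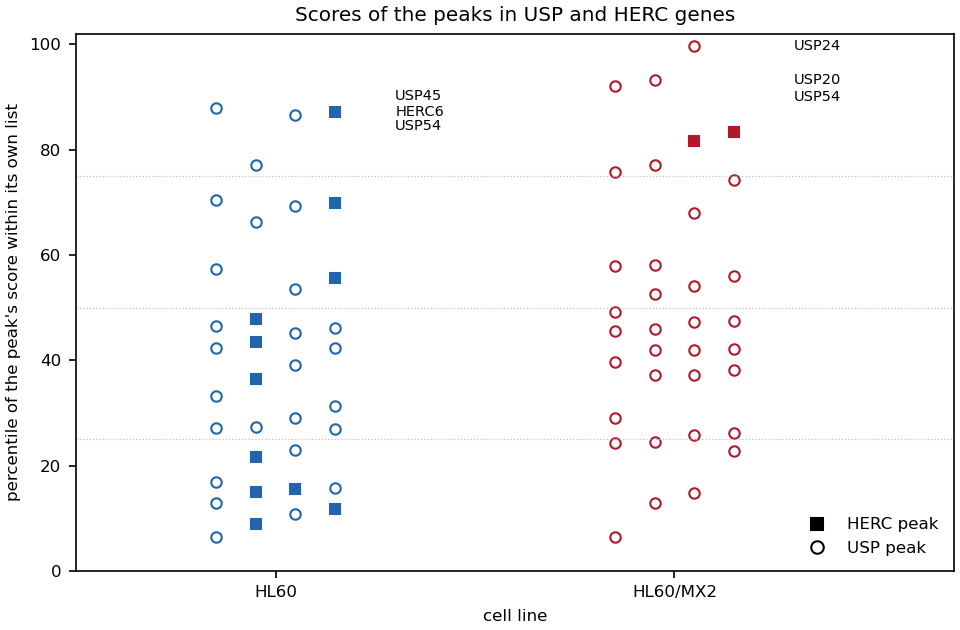
Percentile of each USP or HERC peak's score within its own list (y axis), for HL60 and HL60/MX2 (x axis, points spread sideways for sight). Squares are HERC peaks and circles USP peaks, dotted lines mark the quartiles of the list, and the genes of the 3 highest scores are named. In HL60 11 of 37 peaks lie above the middle line, and in HL60/MX2 14 of 35.

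The peaks were about as long as those of the whole lists, with medians of 115 bp in HL60 and 114 bp in HL60/MX2 against 129 and 133 bp. At least 1 edge fell exactly on an exon end in 86.5% of the family's HL60 peaks (71.2 to 95.5) and 80% of its HL60/MX2 peaks (63.1 to 91.6), against 70.6% and 71.5% of all peaks in genes. A whole exon was covered by 37.8% and 40%, against 29.6% and 29.8%. For both counts the exons were those of any annotated transcript of the gene. An exon so covered can be part of a longer exon of the longest coding transcript. CUGKR was found in 52.8% of the family's HL60 peaks and 50% of its HL60/MX2 peaks that are at least as long as the motif, against 56.6% and 57.8% over all genes. GGAAR was found in 50% and 41.2%, against 44.3% and 43.5%. These shares over all genes lie inside the family's intervals, apart from the edges in HL60, whose interval begins at 71.2%.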

How the data were processed

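Of 4 libraries, the m7G-enriched one of either line gave a peak list, and both lists (2 in all) were used. Per the labels and the study's methods, reads were trimmed with cutadapt 1.9.3 and aligned to hg19 with HISAT2 2.0.4, peaks were called with MACS, and those over exons of protein-coding genes were kept. The submitters' processing notes also name STAR. The settings of MACS are not given in the sources used here. Each list holds positions, strand and the score the authors deposited per peak, whose scale is not stated. Starts counted from 0 were turned to starts counted from 1.

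Genes were the 20167 protein-coding genes of GENCODE release 44 on hg19, of which 8 entries were joined to an overlapping entry of the same symbol. A peak went to the gene with the largest exon overlap on its strand (331 HL60 and 319 HL60/MX2 peaks overlapped none). Regions were those of the longest coding transcript. A percentile counts ties at their middle. Peaks of the lists that overlapped on 1 strand, by 1 bp or more, counted as shared.

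Genes of like exon number were taken from 20 quantile classes, of which 17 differed, with the family left out. Tests on simulated data showed that the uppermost class was too wide for peak numbers and for the HERC genes apart, so these used the 30 nearest genes instead, a choice made after the data were seen. No comparison was tested. Members and lists were chosen with earlier results of these data known. Named with full values were the HERC genes, genes with overlapping peaks, with a peak in both lists or with at least 3 peaks in a list, and the genes of the 3 highest scores. Other genes were named by their state or role. Alternatives concerned gene assignment, score, length, sharing, regions and what makes genes alike. Python 3.11.15, numpy 2.4.6, scipy 1.17.1 and matplotlib 3.10.9 were used.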

Additional observations from a re-analysis of the deposited data

How the results depend on the processing

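Of 71 comparisons of 15 results with their alternatives, 57 stayed within 1.5 times the count or within the interval and 14 moved. With peaks at or above the median score of their list, 11 genes and 11 peaks were left in HL60, 12 genes and 14 peaks in HL60/MX2, 5 genes in both lists, and 0 overlapping peaks in either. When an overlap had to cover at least 50% of both peaks, 0 shared peaks were left in HL60 and 0 in HL60/MX2. With regions taken on any isoform, start and stop codons first, the share of peaks in coding sequence was 54.1% in HL60 and 54.3% in HL60/MX2. Against all protein-coding genes, rather than those of like exon number, the ratio of genes with a peak was 1.46 in HL60 and 1.41 in HL60/MX2. The median score with 1 peak per gene, the highest, was 198.5 in HL60 and 275.6 in HL60/MX2. The whole lists were not reduced in that way, so no like value stands beside these. Each of these follows from what the alternative keeps or counts. The exon-number ratio stayed between its interval's ends with classes of exon length or of merged exons and with the 30 or 100 nearest genes. No paired analysis was possible because the result comes from no test and each line has 1 library. Read depth is not known for either list, so precision rests on how many peaks there are.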

Other observations

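Genes of other deubiquitinases and their relatives, and of other ligases with a HECT domain, were counted in the same way. Not all of the relatives act on ubiquitin. Of 42 deubiquitinases and relatives outside the family, 7 had a peak in HL60 (16.7%, exact 95% interval 6.97 to 31.4), with 10 peaks, and 15 in HL60/MX2 (35.7%, 21.6 to 52.0), with 16 peaks. Over all genes 26.4% and 28.6% had a peak, and both values lie inside these intervals. Of these, 2 genes, OTUD3 and OTUD7B, had a peak in both. The tumour suppressors BAP1 and CYLD and the NF-kB inhibitor TNFAIP3 had none in either list.

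Of 22 HECT ligases outside the HERC genes, 13 had a peak in HL60 (59.1%, 36.4 to 79.3), with 24 peaks, and 10 in HL60/MX2 (45.5%, 24.4 to 67.8), with 20 peaks. Over all genes 26.4% and 28.6% had a peak. The ligases have a median of 25 exons, and among genes with 21 to 30 exons outside the USP and HERC genes 46.1% and 49.1% had one, inside the intervals of the ligases. NEDD4L, which removes the epithelial sodium channel from the cell surface, had 4 peaks in the HL60 list and 0 in the other, and its relative NEDD4 had 0 and 2. WWP2 had 1 and 5 peaks, and HECW2 had 5 and 3. The named genes were chosen after their values were seen, and no difference between the lines was tested.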
